A study of Mus musculus with 21 samples.

Results

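The interleukin 6 (IL6) family was followed through the cells of melanoma lung metastases, primary melanomas and tumor-free lungs, as 10 genes of the 32285 in the count table. They were taken by name as 4 cytokines (Il6, Il11, Lif and Osm), 5 receptor chains (Il6ra, Il11ra1, Il6st, Lifr and Osmr) and the feedback inhibitor Socs3. All 10 were detected, with between 176 unique molecular identifiers (UMIs, 1 for each captured mRNA molecule) for Il6 and 30293 for Il6st in 100359 cells.

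Fragments of MT-ret melanoma, a tumor from mice that carry a Ret transgene, were placed under the skin of mT/mG mice, whose own cells all carry the tdTomato marker, and the primary tumor was resected before lung metastases were collected. Sorted tdTomato+ cells are called tumor microenvironment (TME) here and sorted tdTomato- cells malignant melanoma (MM), while the unchallenged lungs came from mice without a tumor. By their clusters the sorts were mixed. Metastasis TME replicate 5 held 2063 MM cells among 5166. Metastasis MM replicate 4 held 273 MM cells among 638, with 86 B cells, 63 neutrophils and 21 T cells, and it enters the leukocyte levels below. The mice were young adults of both sexes, the tumor comes from 1 transplantable line, and a tdTomato- cell of the transplanted fragment that is not melanoma could not be told from MM by the sort. After identical libraries had been merged, 4 libraries of unchallenged lung, 4 of metastasis TME, 4 of primary tumor TME, 2 of metastasis MM and 2 of primary tumor MM remained, of which the TME libraries of replicates 1-3 pool several mice. Part of the suspensions was also depleted of CD45+ leukocytes, so the number of leukocytes in a library depends on its sort. Since the primary tumors grew under the skin, site and tumor cannot be told apart in any comparison of primary tumor with lung.

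Cytokines of this family signal through the shared receptor chain gp130, the product of Il6st. IL6 and IL11 first bind a chain of their own (Il6ra or Il11ra1), LIF brings gp130 together with the LIF receptor (Lifr), and mouse oncostatin M (Osm) acts through gp130 with the oncostatin M receptor (Osmr). The assembled receptors activate JAK kinases and the transcription factor STAT3, which raises Socs3, and the SOCS3 protein binds gp130 and ends the signal. The family is known for its part in the acute phase response, matrix production and wound repair.

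Osm and Lif are neighbors on chromosome 11, in the same orientation and 16530 bp apart, and Osmr and Lifr are neighbors on chromosome 15, in opposite orientation and 215644 bp apart. Il6 lies on chromosome 5 (30013114 to 30019981, plus strand), Il11 on chromosome 7 (4772373 to 4782859, minus), Il6ra on chromosome 3 (89864059 to 89913196, minus), Il11ra1 on chromosome 4 (41699989 to 41769474, plus), Il6st on chromosome 13 (112464070 to 112510086, plus) and Socs3 on chromosome 11 (117966079 to 117970047, minus), all in GRCm38. Neither interval between the paired genes holds another protein-coding gene in GENCODE vM21. For the 3 cytokines that were highest in tumor matrix fibroblasts and for Socs3, the reference sequence just before the transcription start is shown, because these windows hold a motif of an inducible factor. RefSeq promoter windows (GRCm38.p6) were found for 9 of the 10 genes, and the 250 bases before each start were searched on both strands. The AP-1 motif TGANTCA lay in the windows of Il6, Il11 and Lif and in 6.75% of all 32851 promoters. The STAT motif TTCNNNGAA lay in the window of Socs3 and in 7.02% of all promoters. The stricter STAT form TTCCNGGAA, held by 0.913% of promoters, was not found in the 9 windows. Capitals mark the AP-1 match in the first 3 sequences and the STAT match in the fourth, each written 5′ to 3′ on the strand of its gene and, for Lif and Socs3, without bases that an annotated exon covers.
Il6, chr5:30012864-30013113, plus strand: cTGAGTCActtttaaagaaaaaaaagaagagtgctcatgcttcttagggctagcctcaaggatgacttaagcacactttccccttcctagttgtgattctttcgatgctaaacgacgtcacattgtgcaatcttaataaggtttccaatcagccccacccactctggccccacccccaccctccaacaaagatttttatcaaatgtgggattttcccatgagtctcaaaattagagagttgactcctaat
Il11, chr7:4778142-4778391, minus strand: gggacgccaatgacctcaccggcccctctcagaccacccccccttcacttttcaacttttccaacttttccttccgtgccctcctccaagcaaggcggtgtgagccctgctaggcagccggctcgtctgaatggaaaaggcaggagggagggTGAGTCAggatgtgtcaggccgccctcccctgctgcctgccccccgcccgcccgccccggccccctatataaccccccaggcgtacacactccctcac
Lif, chr11:4257318-4257556, plus strand: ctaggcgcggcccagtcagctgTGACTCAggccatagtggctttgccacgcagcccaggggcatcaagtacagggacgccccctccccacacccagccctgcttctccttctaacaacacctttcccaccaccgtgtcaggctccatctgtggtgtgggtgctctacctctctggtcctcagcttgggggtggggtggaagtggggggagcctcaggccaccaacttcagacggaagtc
Socs3, chr11:117969452-117969616, minus strand: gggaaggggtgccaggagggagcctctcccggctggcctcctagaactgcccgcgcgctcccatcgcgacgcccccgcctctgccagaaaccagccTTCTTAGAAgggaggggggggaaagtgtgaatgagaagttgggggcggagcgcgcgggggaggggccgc
The Il11 and Socs3 windows lie upstream of the RefSeq starts and inside an intron of longer transcripts in GENCODE, and distances are counted from the RefSeq start. The AP-1 match begins 249 bases before the start of Il6, 98 before that of Il11 and 228 before that of Lif, and the STAT match begins 154 bases before the start of Socs3.

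Levels are given as CPM, the UMIs of a gene among all UMIs of a cell type in a library scaled to 1e6, as mean ± SD over the libraries with at least 20 cells of that type. Type names stand for clusters that raise 4 of 8 or a larger share of the markers on a fixed list. Each name means a cell like that type, and 22 types were named. A level compares a gene between cells and not 1 gene with another. Of the libraries, lung replicate 6, primary tumor replicate 6 and the primary tumor MM library of mouse 13 stood apart by low depth, with a median of 1605, 1203 and 1654 UMIs per cell, against 3050 or more in the others. The fibroblasts of lung replicate 6 also held leukocyte markers summing to 10300 CPM, and the large-vessel endothelial cells of primary tumor replicate 6 held melanoma markers summing to 1374 CPM, the highest sum in each tissue. Libraries held 303 to 30419 cells and 1777036 to 60339415 UMIs. In all, 1093 of 99260 barcode sequences occurred in more than 1 library. Some libraries shared mice: the metastasis and primary tumor libraries of replicate 5 are both named for mouse 17 and those of replicate 6 for mouse 18, but the same cells were also deposited under names with mice 21 and 22. The cells of metastasis TME replicate 6 were deposited a further time under an MM name and were counted once, as TME, and without that library the Il6ra call in fibroblasts with mesothelial and mural cells was lost (adjusted p = 0.054).

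**Figure D1:**
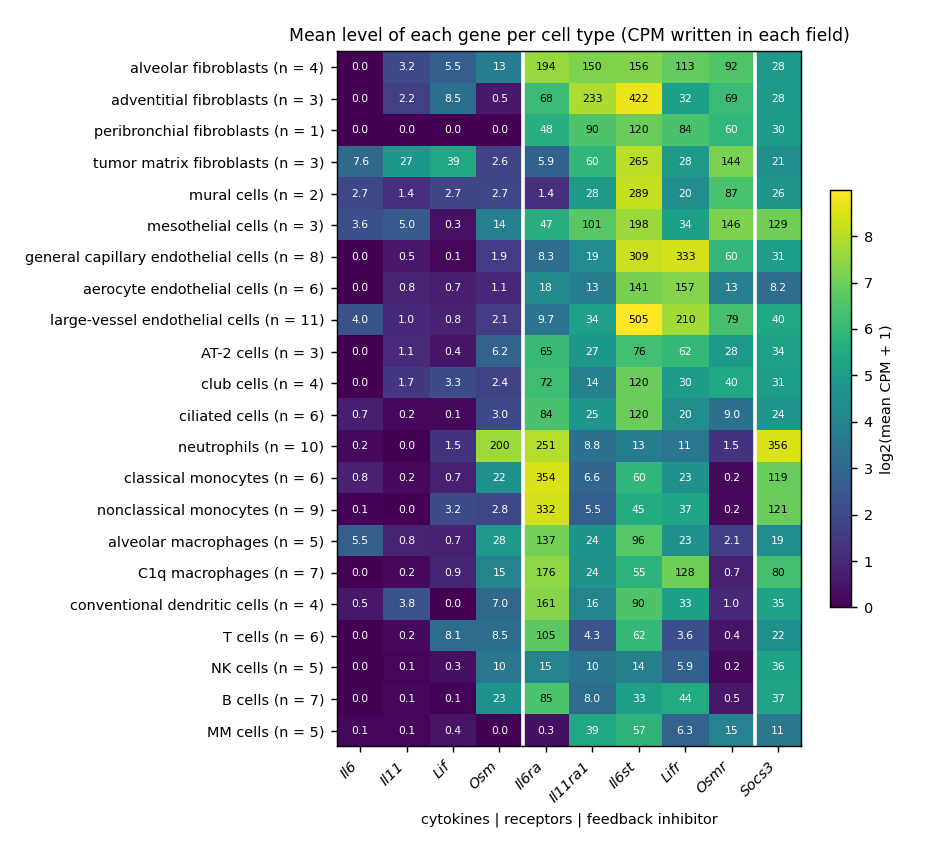
Mean CPM of the 10 genes (columns, cytokines, receptors and feedback inhibitor) in the 22 named cell types (rows, n = libraries with at least 20 cells of the type), with color on the scale log2(mean CPM + 1) and the mean written in each field. Il6, Il11 and Lif are highest in tumor matrix fibroblasts, Osm and Socs3 in neutrophils, Il6ra in monocytes, Il6st in large-vessel endothelium and Lifr in general capillary endothelium.

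Among the cytokines, Il6, Il11 and Lif were highest in the same named type, the tumor matrix fibroblasts, a primary tumor population whose larger subcluster had Tnc, Fbn2 and Inhba among its leading genes. Il6, the founding member of the family, stood at 3.09 CPM in replicate 4, 3.43 in replicate 5 and 16.2 in replicate 6, a mean of 7.58 ± 7.485 (SD, n = 3 libraries). These 45 UMIs came from 12 of 600 cells, and 42 of them from replicate 6. The next named type, alveolar macrophages, held 26.1 CPM in 1 lung library and at most 1.24 in the other 4 libraries, so the order of these types lies within their spread. In large-vessel endothelium Il6 was read in each of the 4 primary tumor libraries, at 13.8, 10.2, 7.09 and 9.87 CPM, in 1 of 3 metastasis libraries, at 2.54 CPM, and in none of the 4 lung libraries.

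Il11, known for its part in fibrosis, stood at 3.09, 20.6 and 57.2 CPM in the tumor matrix fibroblasts of replicates 4, 5 and 6, a mean of 26.9 ± 27.6 (n = 3). Lif, which signals through gp130 and Lifr, stood at 18.5, 37.7 and 62.2 CPM in the same libraries, a mean of 39.5 ± 21.9 (n = 3). All 3 cytokines were lowest in replicate 4 and highest in replicate 6. That library was shallow, but its fibroblasts were not, with 2617239 UMIs in 438 cells. Replicates 4 and 5 held 687377 UMIs in 118 fibroblasts and 407192 in 65. The next named type for Il11, mesothelial cells, reached 4.99 ± 3.16 CPM (n = 3), within the spread of the fibroblasts. For Lif, adventitial fibroblasts followed at 8.51 ± 14.7 CPM (n = 3), all of it from lung replicate 5, and T cells at 8.07 ± 9.26 (n = 6). After each cell had been thinned to 1000 UMIs, a Lif UMI was found in 3.38% ± 1.47 of tumor matrix fibroblasts and 0.145% ± 0.481 of large-vessel endothelial cells, against 13.65% and 0.352% before thinning, at median depths of 5483.5 and 3264.0 UMIs.

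Osm had another source. This cytokine, made by activated neutrophils and monocytes, reached 200.2 ± 162.0 CPM in neutrophils (n = 10 libraries, lowest 26.4, median 154.9, highest 530.9), and in the 5 libraries with both types neutrophils lay above alveolar macrophages, at 27.6 ± 20.6 (n = 5). A cluster led by Arg1, Thbs1 and Spp1, split off from the monocytes and C1q macrophages by the second clustering, held 165.5 ± 68.2 CPM (n = 4). This cluster kept no type name, since it raised 1 of 7 classical monocyte and 1 of 8 C1q macrophage markers over the cells clustered with it. The levels of alveolar macrophages, B cells (22.9 ± 46.9, n = 7) and classical monocytes (21.8 ± 11.4, n = 6) overlapped. After thinning, 12.6% ± 8.89 of neutrophils had an Osm UMI, against 0.277% ± 0.411 of general capillary endothelial cells, which serve as background, and the values before thinning were 23.1% and 0.463%, at median depths of 2226.5 and 3021.0 UMIs.

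The tumor matrix fibroblasts made up 9.33% of the primary tumor TME cells and held 73.6% of its Il11 UMIs, 70.3% of its Lif UMIs and 40.5% of its Il6 UMIs. Replicate 6 carried these shares, which without it were 32.0% of 25 Il11 UMIs, 45.3% of 53 Lif UMIs and 8.11% of 37 Il6 UMIs. A further 26.1% of the Il6 UMIs lay in large-vessel endothelium, or 43.2% without replicate 6. Of the primary tumor Osm UMIs, 45.5% lay in the Arg1-led cluster and 31.4% in neutrophils, or 66.8% and 13.8% without replicate 4. Neutrophils held 46.1% of the Osm UMIs in metastasis TME and 39.5% in lung. These shares depend on how many cells of each type a sort let through. The CPM values are taken within a type but also hold background, such as the 2.68 to 50.4 CPM of Il6ra in lung blood endothelium.

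The receptor chains differed in the types that held most of them. Among the named types Il6ra, the IL6-binding chain, was highest in classical monocytes at 354.3 ± 119.0 CPM (n = 6, lowest 200.8, median 328.7, highest 504.9) and nonclassical monocytes at 331.9 ± 67.2 (n = 9, lowest 197.2, median 327.7, highest 400.9), followed by neutrophils at 251.2 ± 94.7 (n = 10). These neighbors lay within each other's spread, and classical monocytes were above nonclassical in 2 of 6 shared libraries. Alveolar fibroblasts followed at 193.6 ± 109.9 (n = 4), whereas tumor matrix fibroblasts held 7.72, 3.43 and 6.57 CPM. A cluster without a type name, led by Retnlg, S100a8 and S100a9 and split off from the monocytes by the second clustering, held more, 503.7 ± 117.7 (n = 3). This cluster raised 6 of 8 neutrophil and 6 of 8 club cell markers, and 1395 of its 1560 cells came from lung replicate 6. MM cells held at most 0.71 CPM in 5 libraries.

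Il11ra1, the IL11-binding chain, was highest in adventitial fibroblasts among the named types, at a mean of 232.6 CPM, and a mesenchymal cluster without a type name, led by Stc1, Tnfrsf11b and Col12a1, held 237.6 ± 1.96 (n = 2). In adventitial fibroblasts Il11ra1 stood at 239.4 and 167.7 CPM in lung replicates 5 and 6 and at 290.7 in metastasis replicate 5, and in each of these 3 libraries it was above the alveolar fibroblasts, at 149.8 ± 60.1 (n = 4). Tumor matrix fibroblasts held 60.2, 65.2 and 54.1 CPM in replicates 4, 5 and 6, and MM cells 39.4 ± 4.10 (n = 5).

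Il6st, the gp130 gene, was read in every named type. Large-vessel endothelial cells held 504.8 ± 229.6 CPM (n = 11, lowest 133.8, median 510.5, highest 905.3), adventitial fibroblasts 422.2 ± 107.1 (n = 3) and general capillary cells 309.1 ± 91.5 (n = 8). The first 2 types did not separate beyond their spread, nor did general capillary cells, mural cells (288.6 ± 142.1, n = 2) and tumor matrix fibroblasts (265.3 ± 38.5, n = 3). Neutrophils, at 13.1 CPM, and NK cells, at 14.1, held the least, and neutrophils thereby combined a high Il6ra level with one of the lowest Il6st levels.

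Among the named types Lifr was highest in endothelium, with 332.8 ± 150.4 CPM in general capillary cells (n = 8), 210.3 ± 182.7 in large-vessel cells (n = 11) and 157.4 ± 75.6 in aerocytes (n = 6), the thin gas exchange capillaries. The large-vessel mean includes 4 primary tumor libraries and the capillary mean none, and in lung alone the general capillary and large-vessel cells overlapped, at 222.9 to 566.8 and 278.5 to 528.9 CPM. C1q macrophages held 128.2 ± 40.0 (n = 7) and alveolar fibroblasts 112.6 ± 41.4 (n = 4), and none of these neighbors differed beyond its spread. Osmr, the oncostatin M receptor, stood at 101.9, 150.9 and 179.2 CPM in the tumor matrix fibroblasts of replicates 4, 5 and 6, a mean of 144.0 ± 39.1. Mesothelial cells reached a similar mean of 146.3 ± 147.2 (n = 3), but on 8.21 CPM in lung replicate 6, 129.6 in metastasis replicate 5 and 301.2 in metastasis replicate 6. With the cells of all libraries pooled, tumor matrix fibroblasts were first at 162.7 CPM. Osmr was at or below 2.15 CPM in each of the 9 leukocyte types.

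Socs3, the STAT3-induced inhibitor, was highest in neutrophils at 356.1 ± 168.9 CPM (n = 10, lowest 132.1, median 324.6, highest 623.7). Mesothelial cells (129.4 ± 115.7, n = 3), nonclassical monocytes (120.9 ± 31.6, n = 9) and classical monocytes (118.6 ± 111.3, n = 6) followed and did not differ beyond their spread, and the unnamed Arg1-led cluster held 183.3 ± 62.7 (n = 4). MM cells, with Il6st at 56.7 CPM and Socs3 at 11.2, held the 4 cytokines each below 0.50 CPM on average.

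The genes most like each member across the 22 named types were found by Pearson's r of log2(mean CPM + 1). Osmr was most like Rbfox2 (r = 0.949), Il6st like Tmtc3 (0.930), Osm like Ccr1 (0.925), a chemokine receptor of myeloid cells, Il11ra1 like L3hypdh (0.924) and Il6ra like Sorl1 (0.883). Lifr was most like Kank3 (0.860), Il11 like Dio3os (0.853), Socs3 like Trib1 (0.830), Lif like Osr2 (0.793) and Il6 like Nppc (0.756). The types share libraries, so these values describe the pattern only.

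Fibroblasts were compared between primary tumor and unchallenged lung over 3 libraries each, replicates 4 to 6. The 3 members called by edgeR's quasi-likelihood test at an adjusted p below 0.05 were 1 cytokine, Il11, which rose, and 2 receptors, Il6ra and Lifr, which fell. All genes tested numbered 10947, of which 13.6% were called, and the median log2 fold change was 0.03 over the 10 members and -0.09 over all genes. In lung the class consisted of alveolar, adventitial and peribronchial fibroblasts and in the primary tumor mostly of tumor matrix fibroblasts, so a change within cells of 1 subtype and a change of subtype cannot be told apart.

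Il6ra stood at 231.2, 113.6 and 234.7 CPM in lung and at 7.27, 4.91 and 6.495 CPM in the primary tumor. The groups did not overlap, and each tumor library lay in the range that lung blood endothelium, which should lack the gene, showed as background, 2.68 to 50.4 CPM. Il6ra fell by 4.84 ± 0.41 (SE) on the log2 scale with an adjusted p of 0.00070 in edgeR, and it was called under all 15 alternatives, the highest adjusted p being 0.00909. Of the leukocyte markers, Ptprc was also higher in lung fibroblasts, at 40 to 1012 CPM against 0 to 34.9 in primary tumor, and the sum of Ptprc, Lyz2, S100a8 and S100a9 overlapped, at 222 to 10300 against 6.11 to 372. Without lung replicate 6, where these markers were highest, Il6ra fell by 4.62 on the log2 scale (edgeR adjusted p = 9.19e-05). Without the cells that held UMIs of another lineage, Il6ra still fell, by 4.64 on the log2 scale, with an adjusted p of 6.67e-05.

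The metastasis gave 1 library with at least 20 fibroblasts, replicate 5, with Il6ra at 37.5 CPM, between the lung and the primary tumor values. With 1 library, no test of metastasis fibroblasts is given. The same subtypes could be set side by side in these tissues. In alveolar fibroblasts Il6ra was 289.4, 191.4 and 253.2 CPM in lung and 40.25 in metastasis, and in adventitial fibroblasts 92.6 and 80.5 in lung and 31.4 in metastasis. In both subtypes the metastasis library was the lowest, on 64 alveolar and 20 adventitial cells, and with 1 library there is no replicate check. Il6ra was also lower in epithelial types of metastasis replicate 5. After thinning, 0 of 171 alveolar type 2 cells there had a UMI, against 4.08% and 15.4% in lung replicates 5 and 6. For ciliated cells the share was 1.71%, against 10.3% and 17.7%. The lower level is thus not particular to fibroblasts, and the part of library background was not tested. When mesothelial and mural cells were added to the fibroblasts, 2 metastasis libraries entered, and Il6ra was 3.74 ± 0.47 lower than in lung on the log2 scale (edgeR adjusted p = 0.0080, 2.30% of all genes called). Without metastasis replicate 5 the adjusted p was 0.083, and without replicate 6 it was 0.054. This class held different cells in each tissue, with 212 and 31 mesothelial cells in metastasis replicates 5 and 6 against 0, 7 and 58 in lung replicates 4, 5 and 6, and 64 and 2 alveolar fibroblasts against 52, 39 and 735. After thinning, 1 of 212 and 0 of 30 metastasis mesothelial cells had an Il6ra UMI, against 8 of 52 in lung replicate 6. These counts were not set against the background of their libraries. In lung replicate 6 aerocytes, a blood endothelial type that should lack the gene, also held Il6ra, at 73.9 CPM. The counts therefore do not show that lung mesothelial cells express Il6ra. The part of the cell mixture in the difference from lung cannot be told apart from a change within a type.

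Lifr stood at 144.5, 66.3 and 86.65 CPM in lung fibroblasts, at 34.9, 14.7 and 30.95 in the primary tumor and at 56.25 in metastasis replicate 5. The lung and tumor ranges did not overlap, and Lifr fell by 1.73 ± 0.39 on the log2 scale (edgeR adjusted p = 0.022). The call was kept under 11 of 15 alternatives and lost without primary tumor replicate 4, 5 or 6 in turn, at adjusted p values of 0.052, 0.083 and 0.093, and with both replicate 6 libraries left out, at 0.059. Among the lung subtypes Lifr was 165.4, 123.6 and 91.1 CPM in alveolar but 41.5 and 40.2 in adventitial fibroblasts, and the tumor matrix fibroblasts held 35.5, 17.15 and 30.9.

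Il11 stood at 3.21, 2.10 and 1.365 CPM in lung fibroblasts, at 2.91, 14.7 and 56.55 in those of the primary tumor and at 1.875, from 1 UMI, in metastasis. Primary tumor replicate 4 lay within the lung range and replicates 5 and 6 above it. The rise was 3.73 ± 1.04 on the log2 scale (edgeR adjusted p = 0.048). It was not seen within the second sequencing run, where the difference was -0.11 on the log2(CPM + 1) scale, and in the third run, with replicates 5 and 6, it was 3.74. Without primary tumor replicate 5 the edgeR adjusted p was 0.084, without lung replicate 5 or 6 it was 0.078, and without the cells that held UMIs of another lineage it was 0.063. In all, 8 of 13 alternatives kept the call. None of the 13 left out primary tumor replicate 6, which held 148 of the 156 Il11 UMIs, so the call was not checked without that library.

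Il6 had no UMI in the fibroblasts of the 3 lung libraries and stood at 2.91, 2.46 and 16.05 CPM in the primary tumor. Over the pooled cells the primary tumor held 12.1 CPM (95% Poisson interval 8.84 to 16.2, counting error only). This value was 11.02-fold above the 3 UMIs that a count of 0 in the lung group allows, with the counting error of the primary tumor left out. That ratio rests on replicate 6, without which 3 UMIs remained at 2.74 CPM (95% Poisson interval 0.565 to 8.01), an interval that includes the lung limit of 1.1 CPM. The fit gave an edgeR adjusted p of 0.092, so Il6 was not called, and 0.0073 without the filter on low counts. Lif stood at 0.00, 21.0 and 5.46 CPM in lung and at 17.5, 27.0 and 61.5 in the primary tumor. The groups overlapped through lung replicate 5, and the difference of 1.86 ± 0.79 on the log2 scale was not called (adjusted p = 0.15). Osmr was higher in each primary tumor library (97.47, 125.2 and 177.3 CPM) than in any lung library (73.9, 86.25 and 55.95), by 0.93 ± 0.32 on the log2 scale, with an adjusted p of 0.088. Il6st, at 225.5 to 260.6 CPM in tumor and 154.1 to 373.4 in lung, and Socs3, at 21.4 to 42.2 and 9.63 to 46.4, overlapped between the groups, with differences of 0.03 ± 0.38 and 0.03 ± 0.52 on the log2 scale. Of 17 dissociation genes, which respond to tissue digestion, 1 was called higher and 5 lower in the primary tumor fibroblasts, and the part of dissociation in the results was not tested.

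**Figure D2:**
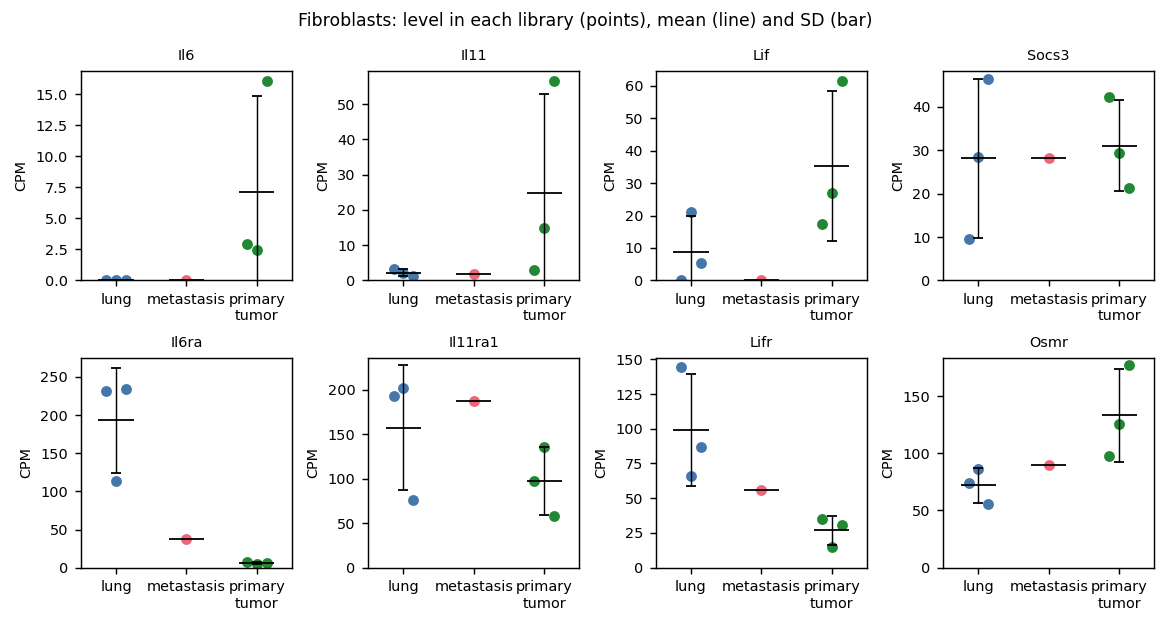
CPM of 8 members in fibroblasts of unchallenged lung, metastasis TME and primary tumor TME, with a point per library, a line for the mean and a bar for the SD, each drawn no lower than 0. Il6ra lies at 113.6 CPM or more in each lung library and at 7.27 or less in each primary tumor library, and the highest Il6 and Il11 values, 16.05 and 56.55 CPM, belong to primary tumor replicate 6.

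Large-vessel endothelium, a cluster with Vwf and Vcam1 among its leading genes, was present in all 3 tissues and could be compared over 4 primary tumor, 4 lung and 3 metastasis libraries. A finer clustering (resolution 1) split this type by tissue. The part led by Fam167b and Igfbp3 held 535 primary tumor, 630 metastasis and 21 lung cells. The part led by Slc6a2, Cytl1 and Vwf held 4, 129 and 750. A change within a cluster and a change of cluster therefore cannot be told apart in these comparisons. The first part raised 5 of 8 large-vessel and 4 of 8 general capillary markers, and the second 7 of 8 and 5 of 8. The type name thus does not tell large vessels from capillaries in the primary tumor. Of the 5 members that passed the filter, edgeR called Lifr lower and Socs3 and Il11ra1 higher in primary tumor than in lung, and 21.3% of all genes tested were called. Between metastasis and primary tumor it called Socs3 alone, with 3.56% of all genes called. Between metastasis and lung it called no member, with 8.46% of all genes called and 1999 genes at an unadjusted p under 0.05. In that last comparison DESeq2 called 2 members, and its share of all genes is not given.

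Lifr stood at 278.5, 313.5, 482.0 and 528.9 CPM in the 4 lung libraries and at 87.4, 49.6, 39.7 and 44.0 in the 4 of primary tumor. The groups did not overlap, and Lifr fell by 2.91 ± 0.44 on the log2 scale (edgeR adjusted p = 0.00015), called under 17 of 17 alternatives and in the same direction within each of the 3 sequencing runs. In metastasis Lifr was 318.4, 48.7 and 122.1 CPM in replicates 4, 5 and 6. These libraries reached into both other groups, and neither the difference from lung (-1.51 ± 0.48, adjusted p = 0.060) nor that from the primary tumor (1.40 ± 0.50, adjusted p = 0.17) was called. Of 16 alternatives, 5 called the difference of Lifr from lung (adjusted p from 0.00011 to 0.33) and 3 that from the primary tumor (0.0058 to 0.99). Without the cells that held UMIs of another lineage, the difference from the primary tumor turned to -0.0784 on the log2 scale.

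In the lung capillaries no difference of Lifr between metastasis and lung was called by the main edgeR fit. General capillary cells held 222.9, 285.2, 556.0 and 566.8 CPM in lung and 354.6, 229.1, 176.8 and 270.9 in metastasis, which overlap (edgeR adjusted p = 0.47, with 0.383% of all genes called, 894 at an unadjusted p under 0.05 and no member called by DESeq2). Aerocytes held 141.1, 152.7, 239.3 and 253.5 CPM in lung and 78.8 and 79.0 in the 2 metastasis libraries, which do not overlap (log2 difference -1.25 ± 0.38, adjusted p = 0.14, with 1.43% of all genes called, 1519 at an unadjusted p under 0.05 and no member called by DESeq2). Of 15 alternatives, 3 called this difference in aerocytes, and its log2 value ran from -1.575 to -1.084 over them all. When all blood endothelial types were summed, Lifr differed from lung by -2.52 ± 0.39 in the primary tumor (edgeR adjusted p = 0.00027). The primary tumor there holds cells of the cluster named large-vessel almost alone. In that class 27.7% of all genes were called.

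Socs3 moved the other way. It stood at 22.4, 26.6, 20.45 and 15.7 CPM in lung large-vessel cells, at 69.0, 64.9, 105.0 and 56.9 in the primary tumor and at 10.3, 19.5 and 28.0 in metastasis. Each primary tumor library lay above every lung and metastasis library. The rise over lung was 1.82 ± 0.28 on the log2 scale (edgeR adjusted p = 0.00019) and was called under 17 of 17 alternatives, and metastasis was 1.75 ± 0.33 lower than primary tumor (adjusted p = 0.0047), a call lost without the cells that held UMIs of another lineage (adjusted p = 0.18). Of the 17 dissociation genes, which respond to digestion as immediate early genes do, none was called higher and 6 were called lower in primary tumor than in lung in these cells, and their sum was 1720 to 2084 CPM in primary tumor against 2700 to 4552 in lung.

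Il11ra1 stood at 22.4, 30.4, 27.3 and 22.0 CPM in lung and at 41.4, 47.1, 39.7 and 55.4 in primary tumor. These groups did not overlap, and the rise was 0.89 ± 0.25 on the log2 scale (edgeR adjusted p = 0.018), with an adjusted p of 0.079 without primary tumor replicate 6 0.16 when both replicate 6 libraries were left out, and 0.14 without the cells that held UMIs of another lineage, and 12 of 17 alternatives kept the call. Il6st was lower in each primary tumor library (342.3 to 510.5 CPM) than in any lung library (515.0 to 905.3), with an adjusted p of 0.11. In metastasis Il6st was 534.1, 133.8 and 305.3 CPM in replicates 4, 5 and 6, the first within the lung range and the others below it, and the difference from lung (-1.20 ± 0.38, adjusted p = 0.059) was called by 6 of 16 alternatives, with adjusted p values from 0.0040 to 0.31. Il6 did not pass the filter on low counts. Over the pooled cells it held 9.58 CPM in primary tumor (95% Poisson interval 6.42 to 13.8). This value was 8.67-fold above what a count of 0 in lung allows, with the counting error of the primary tumor left out. Fitted without the filter, Il6 differed by 5.84 ± 1.33 on the log2 scale (edgeR adjusted p = 0.00022). Melanoma markers moved with the tissues in this class too. The markers Pmel, Dct and Mlana summed to 151 to 1374 CPM in primary tumor, 411 to 6432 in metastasis and 0 to 12.6 in lung. The alternative without cells of another lineage dropped cells with Pmel or Mlana UMIs, among others. Under it the calls of Il11ra1 against lung and of Socs3 between metastasis and primary tumor were lost, and those of Lifr and Socs3 in primary tumor against lung were kept. The part of the melanoma markers alone was not tested.

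**Figure D3:**
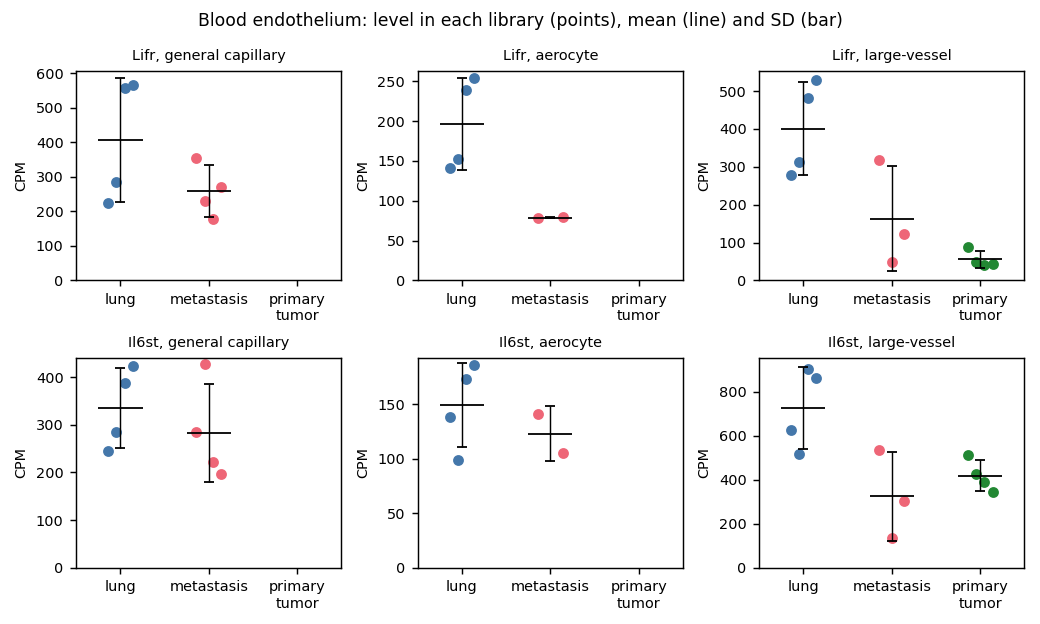
CPM of Lifr (upper row) and Il6st (lower row) in general capillary, aerocyte and large-vessel endothelial cells of the 3 tissues, with a point per library, a line for the mean and a bar for the SD. The 4 primary tumor libraries hold Lifr at 39.7 to 87.4 CPM in large-vessel cells, below all 4 lung libraries. No primary tumor library held 20 cells of the clusters named general capillary or aerocyte.

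Among the leukocyte types, edgeR called Osm higher in neutrophils, Socs3 higher in classical monocytes and C1q macrophages, and Il6st lower in C1q macrophages, in primary tumor against lung. Neutrophils were compared over 2 primary tumor libraries, replicates 1-3 and 4, and 4 lung libraries, and edgeR called 1 of the 3 members that passed the filter, against 4.09% of all genes. Osm stood at 80.3, 117.5, 192.0 and 135.9 CPM in lung, at 451.2 and 530.9 in primary tumor and at 117.4, 26.4 and 176.5 in metastasis. Both primary tumor libraries lay above all others, and the rise over lung was 1.95 ± 0.39 on the log2 scale (edgeR adjusted p = 0.010). It was lost without primary tumor replicate 4 (adjusted p = 0.16) and without lung replicate 6 (adjusted p = 0.0503), and primary tumor replicate 6 held too few neutrophils to enter. Metastasis was 2.06 ± 0.43 lower than primary tumor, which edgeR did not call (adjusted p = 0.12, with 0.0433% of all genes called and 285 at an unadjusted p under 0.05), whereas DESeq2 called it. In a finer clustering (resolution 1) the neutrophil cluster led by Cxcl2 and Acod1 held 265 primary tumor, 149 metastasis and 4 lung cells. The other, led by S100a9 and S100a8, held 25, 234 and 2064. A change within a cluster and a change of cluster cannot be told apart here.

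Socs3 in neutrophils was 553.0 and 623.7 CPM in primary tumor and 187.5 to 347.7 in lung, apart but not called (log2 difference 1.285 ± 0.37, adjusted p = 0.066). Il6ra, at 156.5 and 278.7 CPM in primary tumor and 214.3 to 435.9 in lung, overlapped between the groups. Of the 17 dissociation genes, Ier3 and Egr1 were called higher in primary tumor neutrophils and none lower, and their sum of 26790 and 30460 CPM in primary tumor lay inside the lung range of 14920 to 33690.

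In monocytes and macrophages the Socs3 calls covered some types only. In classical monocytes it stood at 26.0, 50.65, 57.6 and 72.0 CPM in lung and at 194.2 and 311.3 in primary tumor, which do not overlap. The rise was 2.34 ± 0.28 on the log2 scale (edgeR adjusted p = 0.00045, with 1.05% of all genes called), and without primary tumor replicate 4 the adjusted p was 0.056. In C1q macrophages Socs3 stood at 54.2, 89.2, 31.4 and 54.9 CPM in lung, at 53.55 in the 1 metastasis library and at 113.0 and 165.9 in primary tumor. Different clusters held most of this type in the tissues: of its 4 clusters, that led by Calcrl held 249 lung and 2 primary tumor cells, that led by Ccl8 26 and 621, that led by Olfml3 75 and 312, and a proliferating one led by Kif4 29 and 285. A change within a cluster and a change of cluster cannot be told apart in the values of Socs3 and Il6st. The rise of Socs3 over lung was 1.40 ± 0.32 (edgeR adjusted p = 0.014, with 10.2% of all genes called), and without primary tumor replicate 4 the adjusted p was 0.23. It was not called in nonclassical monocytes (0.59 ± 0.37, adjusted p = 0.72) or conventional dendritic cells (0.63 ± 0.73, adjusted p = 0.73).

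Il6st fell in the same macrophages, from 69.0, 34.3, 85.3 and 106.3 CPM in lung to 29.0 and 22.15 in primary tumor. The groups did not overlap, and the change was -1.48 ± 0.32 on the log2 scale (edgeR adjusted p = 0.011, 0.074 without primary tumor replicates 1-3, 0.20 without replicate 4 and 0.14 with the run as a block). Il6ra was also lower in both primary tumor libraries (106.3 and 116.5 CPM) than in lung (187.4 to 281.2), at an adjusted p of 0.056, and 7 of 14 alternatives called it, with adjusted p values from 0.0057 to 0.37, whereas Lifr overlapped (113.4 and 153.9 against 98.6 to 184.0 CPM). In classical monocytes Il6ra was 281.1 and 200.8 CPM in primary tumor and 299.4 to 504.9 in lung, apart but not called (adjusted p = 0.29). The lung epithelial markers Epcam, Sftpc and Scgb1a1, which macrophages should lack, summed to 75.4 to 3016 CPM in lung C1q macrophages and 8.18 to 9.03 in primary tumor, and their part in the falls was not tested.

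**Figure D4:**
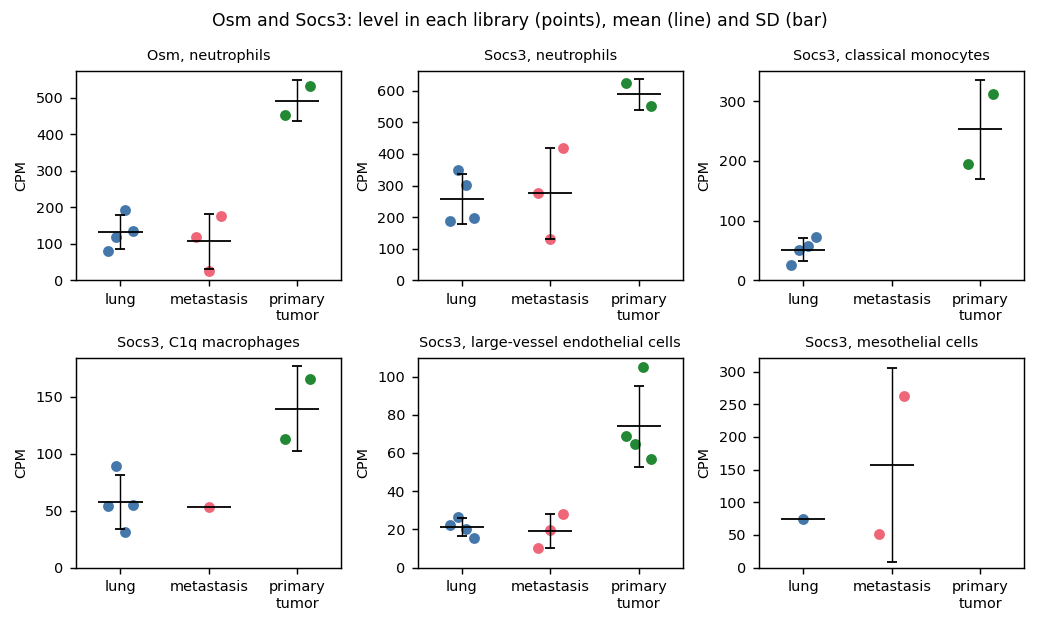
CPM of Osm in neutrophils and of Socs3 in neutrophils, classical monocytes, C1q macrophages, large-vessel endothelial cells and mesothelial cells of the 3 tissues, with a point per library, a line for the mean and a bar for the SD. Both primary tumor libraries lie above all lung libraries for Osm in neutrophils (451.2 and 530.9 against at most 192.0 CPM), and the primary tumor points for Socs3 lie above all lung points in the 4 types where both have points, while mesothelial cells have none from primary tumor.

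**Figure D5:**
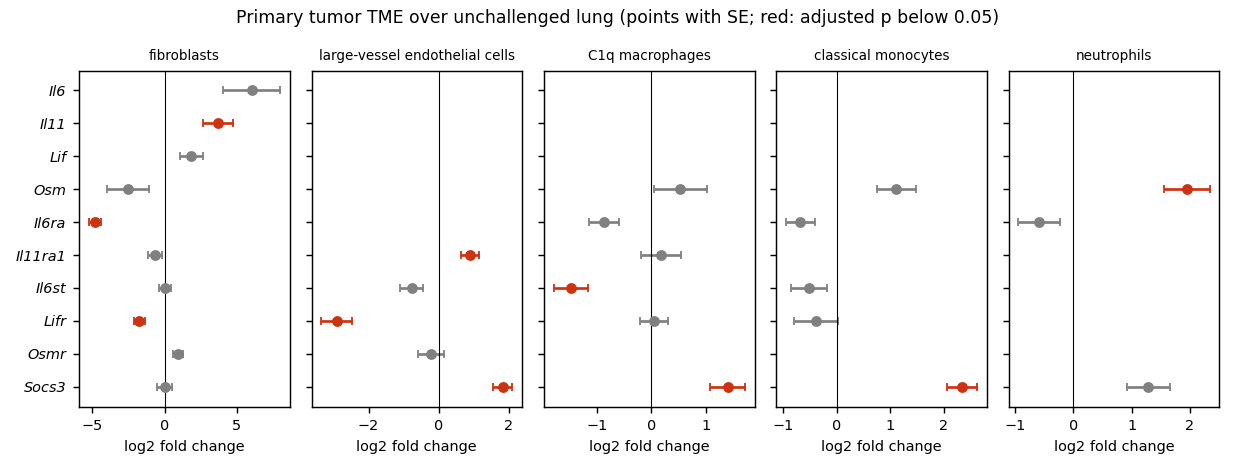
Log2 fold change of each member that passed the filter, primary tumor TME over unchallenged lung, in 5 cell classes, with SE bars and red points at an edgeR adjusted p below 0.05. The scales differ between panels, Socs3 is red in 3 classes and at 0.03 in fibroblasts, and Lifr is red on the lower side in fibroblasts and large-vessel endothelium.

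MM cells were compared between metastasis and primary tumor over 2 libraries each, of which metastasis MM replicate 4 gave 273 MM cells. Socs3 was 5.67 and 2.83 CPM in metastasis and 19.6 and 19.5 in primary tumor, which do not overlap, but edgeR called none of the 7 members tested (Socs3 log2 difference -2.06 ± 0.42, adjusted p = 0.17, with 0.007% of all genes called and 433 at an unadjusted p under 0.05). DESeq2 called 1 of them, Socs3, and in all 3 of 11 alternatives called Socs3. The receptors Il11ra1, at 42.2 and 36.8 CPM in metastasis and 40.1 and 33.95 in primary tumor, and Osmr, at 16.9 and 10.6 against 11.01 and 18.0, overlapped between the groups. In each group 1 library came from mouse 17. Of the 2 MM clusters, 1 held 899 metastasis and 28918 primary tumor cells and 1 held 10590 and 7595. The primary tumor library of mouse 13, which was shallow, gave 30331 MM cells and that of mouse 17 gave 6182. Tissue and library therefore cannot be told apart in this split.

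With the unnamed subclusters of the fibroblast clusters added to the fibroblasts, Il6ra (-4.21) and Lifr (-1.91) stayed lower in primary tumor than in lung (9.34% of all genes called), and the call of Il11 was lost (3.85 ± 1.08, adjusted p = 0.066). Most added cells were not fibroblasts by their markers. The subcluster led by Syt4, Car6 and Dct raised 6 of 8 MM markers, with 1467 cells from primary tumor replicate 6. Those led by Sftpc and by Spef2 raised 7 of 8 alveolar macrophage and 8 of 8 ciliated markers, with 869 and 611 cells from lung replicate 6. This setting is therefore no check on fibroblasts alone. With mesothelial and mural cells added instead, edgeR called Il6ra (-4.89) and Lifr (-1.72) lower and Il11 (3.504) higher, 3 of 8 members tested, against 14.6% of all genes, and that of Il11 was lost without lung replicate 5 or 6 (adjusted p = 0.082 and 0.096). In macrophages of all kinds edgeR called Socs3 and Lifr higher and Il6st lower in primary tumor than in lung (17.7% of all genes), where alveolar macrophages made up most of the lung cells. These calls rest on 2 primary tumor libraries, with adjusted p values of 0.075 for Socs3 and 0.17 for Lifr without replicates 1-3, and of 0.19 for Socs3, 0.14 for Lifr and 0.093 for Il6st without replicate 4. Without lung replicate 5 that of Lifr was 0.053. In the same class edgeR called none of 6 members tested between metastasis and lung (0.439% of all genes, 1815 at an unadjusted p under 0.05) or metastasis and primary tumor (1.4%, 1224). With the replicate block Lifr was called there, by -1.89 ± 0.40 on the log2 scale (edgeR adjusted p = 0.0050), against an adjusted p of 0.20 without the block. In blood endothelium Lifr was 1.76 higher and Socs3 1.51 lower in metastasis than in primary tumor on the log2 scale (11.5% of all genes). Both calls were lost without the cells that held UMIs of another lineage (adjusted p = 0.096 and 0.095), and that of Socs3 without primary tumor replicate 5 (0.055). The metastasis libraries held 75 to 447 general capillary cells and those of primary tumor 0 to 7, so the mixture of types and a change within a type cannot be told apart in this class. In it none of 5 members was called between metastasis and lung (3.27%, 1714 at an unadjusted p under 0.05).

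Between metastasis and lung edgeR also called no member in neutrophils (3 tested, 7.35% of all genes called), nonclassical monocytes (4 tested, 0.186%), B cells (3 tested, 0.0428%), T cells (3 tested, 0.0642%), NK cells (1 tested, 0.0146%), ciliated cells (5 tested, 0.404%) or club cells (5 tested, 1.24%), with 1137, 298, 145, 172, 328, 959 and 447 genes at an unadjusted p under 0.05. Nor was a member called in nonclassical monocytes (4 tested, 0.167%) and conventional dendritic cells (4 tested, 2.76%) between primary tumor and lung, with 377 and 866 genes at an unadjusted p under 0.05. In the dendritic cells Il6ra was lower by 1.51 ± 0.43 on the log2 scale (adjusted p = 0.086), and 4 of 11 alternatives called it, with adjusted p values from 0.0029 to 0.63. The same held between metastasis and primary tumor for fibroblasts with mesothelial and mural cells (8 tested, 2.09%), an unnamed cluster led by Bche, Cspg4 and Wnt4 (5 tested, 0.127%) and nonclassical monocytes (4 tested, 0%), with 1418, 424 and 281 genes at an unadjusted p under 0.05. DESeq2 called no member in any of these comparisons in which edgeR called none.

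The remaining genes of the pathway were read from fixed lists. Stat3 and Jak1 were read in all 22 types, with lowest means of 76.3 and 40.1 CPM and highest of 275.1 in neutrophils and 975.4 in NK cells. Of 17 signal transducers, regulators and shedding proteases, 16 were tested in fibroblasts, where Socs2 (-1.965) and Stat5b (-1.14) were called lower in primary tumor (13.6% of all genes called), and 14 in large-vessel endothelium, where Cish, a STAT5-induced inhibitor, was lower (-2.535) and Jak2 higher (0.95) (21.3% of all genes called). These shares of the list were no larger than those of all genes, and the list's medians were -0.20 and -0.01 against -0.09 and -0.02 over all genes. No gene of this list was called in C1q macrophages, classical monocytes or neutrophils, in which 14, 14 and 11 were tested.

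Of 21 genes known to be raised by STAT3, 3 of 19 tested were called higher in primary tumor fibroblasts (Saa3 by 6.32, Timp1 by 4.18 and Ier3 by 2.94 on the log2 scale) and 1 lower (Bcl6, -1.84), with a median of -0.27 against -0.09 over all genes, of which 13.6% were called. In large-vessel endothelium 3 of 16 were higher (Lcn2 by 4.315, Timp1 by 3.45 and Lrg1 by 1.74) and 3 lower (Hp, Pim1 and Icam1), with a median of -0.39 against -0.02 and 21.3% of all genes called. C1q macrophages had 5 of 17 higher, among them Timp1, Lrg1 and Saa3, and 2 lower, Lcn2 and Il1rl1, with a median of 0.20 against -0.05 and 10.2% of all genes called. Classical monocytes had Timp1 and Ier3 higher and Bcl6 lower of 14, with a median of 0.24 against -0.01 and 1.05% of all genes called. Neutrophils had Timp1 and Ier3 higher of 15, with a median of 0.11 against -0.02 and 4.09% of all genes called. Ier3 is also among the dissociation genes. Timp1, an inhibitor of matrix proteases, was thus called higher in all 5 classes, and Socs3 in 3 of them. The same lung and primary tumor mice gave these classes, so they are not independent of each other.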

How the data were processed

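Host and tumor cells sorted from unchallenged lungs, primary melanomas and lung metastases were sequenced on the droplet platform for 3′ ends of mRNA. The authors aligned the reads with Cell Ranger 6.1.1 to GRCm38 (mm10), removed cells at quantile limits of mitochondrial and ribosomal RNA and of detected genes, and deposited raw UMI counts of 32285 genes merged in Seurat 3.2.2. A deposited normalized copy was not used. Of 24 library names, 5 held the same cells as another and were counted once, which removed 9924 of 110283 barcodes. The labels call the source of all samples lung, so the tissue was taken from the other labels. Cells were clustered in Seurat 5.3.0 (2000 variable genes without the members, of which 7 would have been included, 17 principal components, resolution 0.5), and fibroblast and monocyte clusters a second time (12 components), then named by standard markers. No doublet caller was run, and an alternative left out cells with UMIs of another lineage.

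Counts were summed per library and class with at least 20 cells and tested with edgeR 4.0.16 (filterByExpr, TMM, quasi-likelihood F test), with p-values adjusted over all genes tested by the Benjamini-Hochberg method and called below 0.05. DESeq2 1.42.0 and the other settings named in the closing section were alternatives. Shares of all genes called are those of the main edgeR fits, and none is given beside the counts of members under DESeq2 or another alternative. The test recovered known changes on simulated counts. Shares of cells were also taken after thinning each cell to 1000 UMIs, which left out 5144 cells. Intervals (95%) and the limit of 3 counts that a count of 0 allows cover counting error only, and p-values measure the spread between libraries, of which some share mice. By the labelled mice, metastasis and primary tumor libraries of the same replicate number share mice in replicates 1-3 (in part), 5 and 6 but not 4. In blood endothelium the deviations of these 3 pairs gave r = 0.169, 0.168 and 0.168, against 0.0033 for replicate 4. Over the 38 pairs of different number in that class r ran from -0.283 to 0.274, both ends being pairs of lung with metastasis. Among pairs of metastasis with primary tumor alone, those of different number ran from -0.226 to 0.129, and the 3 pairs lay above them. In large-vessel cells replicates 5 and 6 gave 0.111 and 0.0464. The like pairs of different number ran there from -0.143 to 0.0825, so replicate 5 lay above them and replicate 6 among them. The main tests did not pair these libraries, and the replicate block was an alternative. Lung libraries came from other mice. All 10 members are named, and from the other lists the genes called in a comparison, at most 5 for each list, with Stat3 and Jak1. The members and gene lists were chosen with earlier results of these data known. The fixed list of further cytokines and receptors of the family is not reported here. Sequences were read from RefSeq promoter windows on GRCm38.p6. Analyses ran in R 4.3.3 and Python 3.11.15.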

Additional observations from a re-analysis of the deposited data

Results flagged for a closer look

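Of 101 groups of 4 to 10 libraries checked for a single library far from the rest, 8 held one, and chance alone gives about 1 in 20. Il6 stood at 26.1 CPM in the alveolar macrophages of lung replicate 4 and at 13.4 CPM in all macrophages of that library. Il6ra was highest in lung replicate 6 in aerocytes, at 73.9 CPM, and in alveolar macrophages, at 198.7 CPM. The lung library of mouse 5 was lowest for Lifr, at 13.02 CPM, and for Osm, at 7.81 CPM, in classical monocytes. Among primary tumor libraries, Lifr in blood endothelium was highest in replicates 1-3, at 99.9 CPM, and Socs3 in replicate 5, at 105.0 CPM.

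Lifr differed in opposite directions between cell classes, and the difference between the classes was not tested. Between primary tumor and lung each library was higher in macrophages, by 1.56 on the log2 scale, and lower in fibroblasts (-1.73), in blood endothelium (-2.52) and in large-vessel endothelium (-2.91). The lung macrophages were mostly alveolar macrophages and those of the primary tumor C1q macrophages, and within C1q macrophages Lifr differed by 0.05. Between metastasis and lung each library was higher in nonclassical monocytes, by 1.46, and lower in aerocytes (-1.25) and club cells (-2.36), and the main edgeR fit called none of these 3. The alternatives that called them were 1 of 16 in nonclassical monocytes, 3 of 15 in aerocytes and 0 of 11 in club cells.

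Clusters that kept no type name also held family members above the level of most named types. A mesenchymal cluster led by Stc1, Tnfrsf11b and Col12a1, found almost only in primary tumor, held Il11 at 15.1, Lif at 25.45, Il11ra1 at 237.6 and Osmr at 145.6 CPM. The cluster led by Arg1, Thbs1 and Spp1 held Osm at 165.5, Socs3 at 183.3 and Lif at 8.66 CPM. Cells led by Retnlg, S100a8 and S100a9 held Il6ra at 503.7 CPM.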

How the results depend on the processing

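Of the counts of called members, 172 values under alternatives stayed within 1.5 times the main count and 23 did not. For fibroblasts of primary tumor against lung, 3 members were called, 6 without the filter on low counts, 1 with both replicate 6 libraries of lung and primary tumor left out, and 1 to 3 when 1 library was left out. With mesothelial and mural cells added, 1 member was called for metastasis against lung. For neutrophils of primary tumor against lung, 1 was called, 0 with both replicate 6 libraries left out, 2 without cells that held another lineage's UMIs, and 0 to 1 when 1 library was left out. For neutrophils of metastasis against primary tumor, and for MM cells, none was called by edgeR, 1 by DESeq2 and 1 without the filter, and in MM cells 1 with the run as a block. In macrophages of primary tumor against lung 3 were called, and 0 to 3 when 1 library was left out. In blood endothelium of metastasis against primary tumor 2 were called, 0 without cells that held another lineage's UMIs and 2 to 4 when 1 library was left out, and for metastasis against lung 0 to 1 when 1 library was left out. Over the remaining classes 7 were called, 16 without the filter and 4 to 9 when 1 library was left out. The causes were not tested.

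Of the single-gene values, 642 kept direction and side of the threshold, 43 became called, 32 lost the call, 18 without a test moved by more than the spread, and 1 turned direction, Lifr in large-vessel endothelium of metastasis against primary tumor, which was -0.0784 without cells that held another lineage's UMIs. Leaving out primary tumor replicate 4 ended 8 of 19 calls, which do not include those in fibroblasts with added subclusters or with mesothelial and mural cells. The settings of added subclusters, the run as a block, both replicate 6 libraries left out, and shares of UMIs and the ratio of Il6 to the lung limit without single libraries were chosen after the data were seen.

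With the replicate block, 1 member was called in macrophages of metastasis against primary tumor, and also 1 with the run as a block, against 0 without a block. The replicate block also ended the call of Il11ra1 in large-vessel endothelium of primary tumor against lung (edgeR adjusted p = 0.083), where same-numbered libraries come from different mice. Il6 and Il11 rest on few UMIs, and classes with 2 primary tumor libraries rest on the spread of the lung libraries.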
